A study of Arabidopsis thaliana with 12 samples.

Results

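The transposable elements described here are those with a low listed level in wild-type Arabidopsis thaliana seedlings that were listed as changed in a silencing mutant. They are the element identifiers in any of 3 deposited comparison tables whose Col-0 value was under 5 RPKM (reads per kilobase of feature, scaled to library size) in every table that listed them. The elements were thus chosen by their Col-0 RPKM and by the authors' q, 2 of the measured values described below. This rule found 35 of the 153 listed elements, among 1618 listed features in all. The study sequenced rRNA-depleted total RNA of seedlings grown for 2 to 3 weeks in long days, with 12 samples in 4 groups of 3 replicates. The groups were the wild type Col-0, nrpe1, the heterozygote swi3b +/- and idn2-1, and the labels name no further allele or treatment. Each table compares 1 mutant with Col-0, gives 1 value per genotype and lists features that the authors called at q under 0.05, so no spread between replicates can be given.

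Plants keep most transposable elements silent by DNA methylation. In RNA-directed DNA methylation, RNA polymerase V (largest subunit NRPE1) transcribes scaffold RNA at target loci, small RNAs bound to an ARGONAUTE protein pair with it, and the double-stranded-RNA-binding protein IDN2 acts with this complex. SWI3B is a core subunit of SWI/SNF chromatin remodellers, which move nucleosomes. Retrotransposons with long terminal repeats (LTRs) copy themselves through RNA and carry the same repeat at both ends, whereas many DNA transposons end in inverted repeats. In Arabidopsis the long retrotransposons lie mostly around centromeres, and short element remnants are scattered between and within genes of the chromosome arms.

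The elements at which end repeats were found were all on the falling side. Repeats of at least 30 bp that lay within 10 bp of both locus ends were found at 6 of the 35 loci, 5 direct and 1 inverted, and all 6 elements were listed as lower in a mutant. The search used the locus written for each element, since the elements' own ends are not given. For AT3TE35255, AT5TE31645, AT5TE35950 and AT5TE60280, all listed as higher, a listed gene has the same locus. End repeats of such elements could be missed, so nothing is read from this split by direction. No share among the other listed elements is given. The repeats of AT1TE30550 are shown because the element went from a detected level to 0 in nrpe1, with capitals marking the positions at which its left and right copies differ (RefSeq TAIR10.1, plus strand, chr1:9476002-9476121 and chr1:9480515-9480634).
AT1TE30550 left: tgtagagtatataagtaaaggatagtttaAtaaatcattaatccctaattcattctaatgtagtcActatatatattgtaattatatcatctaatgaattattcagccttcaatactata
AT1TE30550 right: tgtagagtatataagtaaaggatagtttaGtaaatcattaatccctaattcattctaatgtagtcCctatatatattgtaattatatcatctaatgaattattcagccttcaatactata
These copies are 120 bp each and 98.3% identical. AT3TE63765, the only element listed as lower in 2 mutants, has repeats of 161 bp that are 98.8% identical, shown with the same use of capitals (plus strand, chr3:15768787-15768947 and chr3:15773587-15773747).
AT3TE63765 left: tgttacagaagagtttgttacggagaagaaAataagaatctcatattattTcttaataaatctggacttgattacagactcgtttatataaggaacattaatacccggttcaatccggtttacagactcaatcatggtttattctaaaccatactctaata
AT3TE63765 right: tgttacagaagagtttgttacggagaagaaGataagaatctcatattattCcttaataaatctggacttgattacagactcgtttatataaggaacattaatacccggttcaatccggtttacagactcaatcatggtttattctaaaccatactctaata
AT2TE12510 has the longer repeats, of 732 bp, and its left and right copies are 100% identical over that length. Their first 100 bases are shown from the left copy (plus strand, chr2:2858588-2858687).
AT2TE12510: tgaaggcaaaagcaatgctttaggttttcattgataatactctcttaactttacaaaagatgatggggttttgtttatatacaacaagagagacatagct
AT1TE53970 has repeats of 427 and 424 bp at its ends, 91.8% identical. AT5TE42470 has repeats of 1804 bp at its ends, 99.2% identical, and a direct repeat of 11429 bp of the same locus at 99.3% identity.

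Open reading frames (start to stop codon, either strand) were taken from the written locus. The longest was 1481 codons in AT3TE63765, 1470 in AT1TE30550 and 1412 in AT2TE12510. The frame was 239 codons in AT1TE53970, although it carries the same kind of end repeat. Across the 13 elements that were listed as lower and never higher, the longest frame ranged from 51 to 1481 codons with a median of 322. Across the 21 elements that were listed as higher and never lower it ranged from 13 to 585 codons with a median of 82. The frame of 585 codons is that of AT5TE60280, whose written locus is also that of the disease resistance gene AT5G41750. Locus length differed as well, with a median of 4633 bp for the falling and 1085 bp for the rising elements. Its part in the difference between the frames was not tested. RefSeq pseudogenes lie within each of the 5 loci with direct end repeats, but they do not cover the whole locus.

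In nrpe1, 2 of the elements were listed as lower and 7 as higher. Over all features of that table the authors called 0.848% of 27012 tests lower and 1.04% higher, 1.88% in either direction. The elements were taken from listed rows by their Col-0 level, so nothing is read from this comparison or from those for the other mutants. AT1TE30550 (chromosome 1, 9476002 to 9480634) went from 0.842 RPKM in Col-0 to a listed 0 in nrpe1 (q = 2.07e-06 according to the authors' deposited table). AT1TE53970 (chromosome 1, 16369971 to 16375017) fell from 0.819 to 0.218 RPKM according to the authors' deposited table, a 3.75-fold fall (q = 0.0155). Both loci have direct end repeats. With low Col-0 levels and 1 value per genotype, nothing is read from these falls about elements of that kind.

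In swi3b +/-, 7 of the elements were listed as lower and 1 as higher (0.556% and 1.87% of 25877 tests were called in these directions over all features, and 2.43% in either). AT3TE63765 (chromosome 3, 15768787 to 15773753) went from 0.757 RPKM to a listed 0 (q = 2.05e-05 according to the authors' deposited table). The authors' deposited table puts 4 other elements at a listed 0 in swi3b +/-. AT3TE61385 had 0.873 RPKM in Col-0 there (q = 7.18e-05), AT1TE46650 0.891 (q = 0.00389), AT3TE59900 0.866 (q = 0.0260) and AT4TE51020 0.923, all according to the authors' deposited table. AT1TE22850, the longest locus among these with 6069 bp, fell from 0.917 to 0.194 RPKM according to the authors' deposited table, 4.74-fold (q = 0.0370). The Col-0 levels of these falling elements were thus close together, and AT1TE93275 at 3.30 RPKM was the exception.

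AT4TE51020 (chromosome 4, 11122742 to 11123827) is the element with an inverted repeat. It went from 0.923 RPKM in Col-0 to a listed 0 in swi3b +/- (q = 0.0225 according to the authors' deposited table). Its first 221 bases and the reverse complement of its last 229 bases are 88.3% identical, as shown with capitals at differing or unpaired positions (chr4:11122742-11122962, plus strand, and chr4:11123599-11123827, minus strand).
AT4TE51020 left: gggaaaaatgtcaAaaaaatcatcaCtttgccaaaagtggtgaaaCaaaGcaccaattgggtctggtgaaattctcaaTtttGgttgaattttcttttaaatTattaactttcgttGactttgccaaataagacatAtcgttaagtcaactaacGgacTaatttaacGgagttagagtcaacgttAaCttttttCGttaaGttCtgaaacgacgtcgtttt
AT4TE51020 right, reversed: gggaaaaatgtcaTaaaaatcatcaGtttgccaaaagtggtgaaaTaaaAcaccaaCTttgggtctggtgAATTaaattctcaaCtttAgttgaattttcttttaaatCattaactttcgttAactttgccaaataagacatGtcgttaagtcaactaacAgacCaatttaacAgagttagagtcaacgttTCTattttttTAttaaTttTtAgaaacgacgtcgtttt
Its locus lies inside AT4G20735, which RefSeq annotates as protein-coding with no named product.

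In idn2-1, 6 of the elements were listed as lower and 15 as higher (1.95% and 1.24% of 27755 tests over all features, and 3.18% in either). AT5TE42470 (chromosome 5, 11830762 to 11851813) had the largest fall among elements with both values above 0, from 2.16 to 0.0690 RPKM according to the authors' deposited table, 31.3-fold (q = 0). Its 21052 bp locus holds the microRNA genes MIR854a and MIR854c and 5 annotated pseudogenes. Stretches with at least 95% identity elsewhere in the genome cover 100% of this locus. Reads may have been shared with those copies, so the values of AT5TE42470 are uncertain. AT2TE12510 (chromosome 2, 2858588 to 2864201) fell from 1.76 to 0.291 RPKM according to the authors' deposited table, 6.06-fold (q = 1.58e-06). AT3TE63765, AT1TE42800 and AT3TE59625 went to a listed 0 from Col-0 values of 0.651, 0.667 and 0.692 RPKM according to the authors' deposited table (q = 0.000257, 3.30e-06 and 0.00234). AT1TE17030 fell from 3.53 to 1.58 RPKM according to the authors' deposited table, 2.23-fold (q = 0.0159). Its locus is that of CYTOSLEEPER, which is related to hAT transposases and which RefSeq annotates as pseudogene.

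Some of the falling elements resemble each other in sequence although different mutants listed them. AT1TE42800, lower in idn2-1, and AT1TE53970, lower in nrpe1, aligned over 3906 positions with 81.5% identity. AT1TE46650, lower in swi3b +/-, and AT3TE59625, lower in idn2-1, aligned over 1671 positions with 76.7% identity. Neither pair was listed together in any table.

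Of the rising elements of nrpe1, AT4TE63620 and AT5TE35950 had the highest listed RPKM. AT4TE63620 was listed at 0 in Col-0 and at 301.2 RPKM in nrpe1 (q = 0.0499, the largest of that table, according to the authors' deposited table). Its locus (chromosome 4, 13515478 to 13523225) spans AT4G26900, which encodes the histidine biosynthesis enzyme AT-HF, and AT4G26910, a dihydrolipoamide succinyltransferase gene. The RPKM of AT4TE63620 is not read as an amount of RNA. Elements with far lower RPKM had a p close to that of AT4TE63620, as described below. AT5TE35950 (chromosome 5, 9868191 to 9872479) rose from 1.36 to 104.8 RPKM according to the authors' deposited table, 76.8-fold (q = 0). The same locus is listed under the pseudogene identifier AT5G27845, which rose from 0.612 to 22.0 RPKM according to the authors' deposited table. AT1TE03050 was listed at 0 in Col-0 and 7.19 RPKM in nrpe1 according to the authors' deposited table (q = 0.00826). Its written locus lies inside the protein kinase gene AT1G03740 and covers 94.8% of that gene. AT3TE47360, AT2TE40405 and AT1TE21735 were listed at 0 in Col-0 and at 2.12, 0.998 and 0.773 RPKM in nrpe1 according to the authors' deposited table (q = 0.00629, 0.0359 and 0.0327). AT3TE47360 lies in a non-coding RNA gene, and AT2TE40405 and AT1TE21735 lie over pseudogenes.

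AT3TE35255 was the only element listed as higher in 2 mutants. It rose from 2.25 RPKM to 22.1 in nrpe1, 9.83-fold, and to 16.5 in swi3b +/-, 7.35-fold, according to the authors' deposited tables (q = 8.39e-06 and 0.000236). The Col-0 value is the same in both tables, so these rises share their control. The whole locus (chromosome 3, 8410433 to 8412193) lies inside AT3G23450, a gene without a named product. That gene moved the other way in nrpe1, from 352.6 to 191.6 RPKM according to the authors' deposited table (q = 0.000196). Other elements of the identical locus, AT3TE35260 and AT3TE35265, were listed as lower in idn2-1, from 1103 to 229.8 RPKM and from 181.3 to a listed 0 according to the authors' deposited table. Reads of features that overlap cannot be told apart in these tables, so how reads were divided between the gene and its elements was not tested.

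In idn2-1 the highest value was that of AT5TE31645, listed at 0 in Col-0 and at 66.3 RPKM in idn2-1 (q = 0.0127 according to the authors' deposited table). Its locus (chromosome 5, 8744285 to 8747197) is also listed as the stress-induced protein gene AT5G25240, which rose 2.29-fold from 16.1 to 36.8 RPKM according to the authors' deposited table. In the RefSeq annotation that gene covers 20.7% of the locus. The RPKM of AT5TE31645 is likewise not read as an amount of RNA. AT5TE60280 rose from 2.47 to 9.78 RPKM according to the authors' deposited table, 3.96-fold (q = 0.00130). Its written locus is also that of the TIR-NBS-LRR disease resistance gene AT5G41750. That gene is listed as higher in swi3b +/-, from 1.59 to 3.69 RPKM according to the authors' deposited table, but not in idn2-1. AT2TE56340 rose 2.80-fold to 2.27 RPKM according to the authors' deposited table (q = 0.0250). AT4TE37565 was listed at 0 in Col-0 and 4.43 RPKM in idn2-1 according to the authors' deposited table (q = 0.0287). Its written locus lies within AT4G14746 and covers 91.3% of that gene. AT3TE43000 and AT5TE48590, also at a listed 0 in Col-0, reached 2.36 and 2.02 RPKM according to the authors' deposited table (q = 0.0216 and 0.00301); the first overlaps protein-coding genes and the second a pseudogene.

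AT1TE93275 (chromosome 1, 28515062 to 28516118) was listed in opposite directions in 2 mutants. It fell from 3.30 to 0.643 RPKM in swi3b +/-, 5.13-fold (q = 0.0119), and rose from 2.82 to 14.5 RPKM in idn2-1, 5.16-fold (q = 1.88e-09), according to the authors' deposited tables. The Col-0 value in the idn2-1 table is 0.854 times that in the swi3b +/- table, and over 134 features the median ratio of the idn2-1 table to the nrpe1 table was 0.856. The difference between the mutants could not be tested, since 1 value per genotype is given and Col-0 is shared. AT3TE51710 (chromosome 3, 12559239 to 12560276), which shares sequence with AT1TE93275, also rose in idn2-1, from 2.88 to 7.92 RPKM according to the authors' deposited table, 2.75-fold (q = 0.00290). The stretch they share most closely is shown with capitals at differing or unpaired positions; 89 of 110 aligned positions are identical (plus strands, chr1:28515134-28515239 and chr3:12559294-12559398).
AT1TE93275: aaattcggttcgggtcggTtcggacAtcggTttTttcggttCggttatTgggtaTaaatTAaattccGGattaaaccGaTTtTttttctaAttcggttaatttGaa
AT3TE51710: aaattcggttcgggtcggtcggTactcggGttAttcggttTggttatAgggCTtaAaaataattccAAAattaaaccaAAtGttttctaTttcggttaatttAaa

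**Figure D1:**
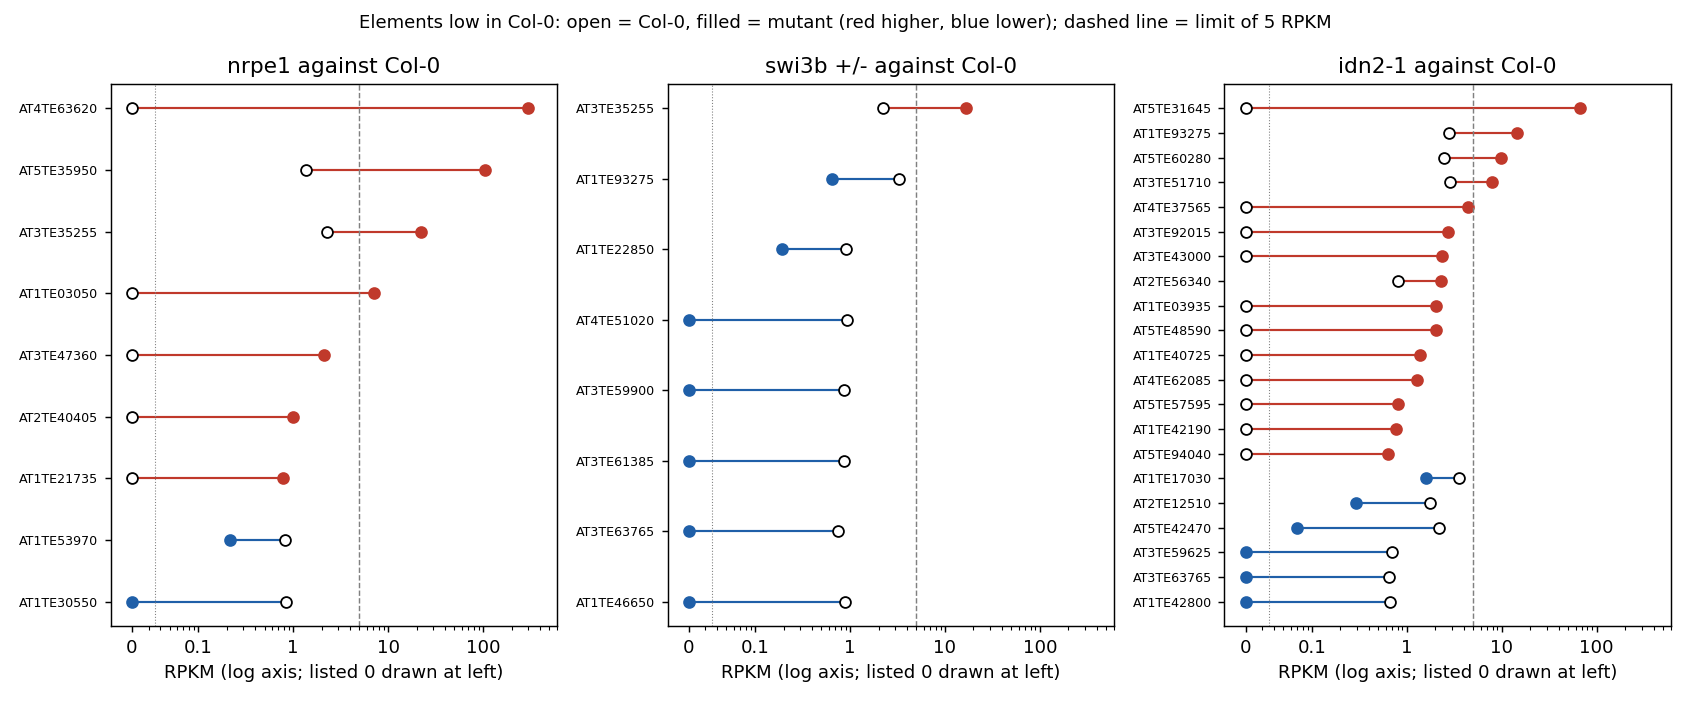
RPKM of each element in Col-0 (open circles) and in the mutant (filled circles; red higher, blue lower) according to the authors' deposited tables, on a log axis with a listed 0 drawn at the left. In the idn2-1 panel 11 of the 15 rising elements start at a listed 0, and in the swi3b +/- panel 5 of the 7 falling ones end there.

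Taken over the 3 tables, the elements fill 38 entries, 23 higher and 15 lower. Of the 23 higher entries 16 are at a listed 0 in Col-0, and of the 15 lower entries 9 are at a listed 0 in the mutant. The other 7 higher entries had folds of 2.75 to 76.8 (median 5.16), and the other 6 lower entries 2.23 to 31.3 (median 4.93). Over all features, 18 of 280 higher entries were at a listed 0 in Col-0 in nrpe1, 4 of 485 in swi3b +/- and 17 of 343 in idn2-1. Of the lower entries, 6 of 229, 16 of 144 and 27 of 540 were at a listed 0 in these mutants. The rule takes low Col-0 values and so favours a listed 0. Of the 35 elements, 32 are in a single table and 3 are in 2 tables. Over all features, 1618 features fill 509 entries in nrpe1, 629 in swi3b +/- and 883 in idn2-1. Most features of any kind are thus in a single table, and nothing is read from the count for these elements. The 118 listed elements with higher Col-0 values fill 141 entries, of which 12 (8.51%) are higher and 129 (91.5%) lower. A low Col-0 level limits how far an element can fall and still be called, so these shares are tied to the rule and are given as a description.

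The limit of 5 RPKM fell in a gap. The elements just inside it were AT1TE17030, AT1TE93275 and AT3TE51710, at 3.53, 3.30 and 2.88 RPKM in Col-0 according to the authors' deposited tables. Those just outside were AT5TE35015, AT5TE24400 and AT4TE39400, at 6.48, 7.44 and 7.94 RPKM in Col-0 according to the authors' deposited table for idn2-1. AT5TE35015 and AT4TE39400 are listed as higher there and AT5TE24400 as lower.

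The loci are described here by direction. The 13 elements that only fell had loci of 1086 to 21052 bp (median 4633 bp), and the 21 that only rose 438 to 7748 bp (median 1085 bp). These are written loci and not the elements' own lengths. Among the rising ones, 4 are also the locus of a listed gene, and the 7748 bp locus of AT4TE63620 spans AT4G26900 and AT4G26910. A window of 1 Mb around the locus held 15 to 304 protein-coding genes for the falling elements (median 98) and 32 to 308 for the rising ones (median 266). Around all 27444 annotated protein-coding genes the median was 271, with a 5th to 95th percentile of 144 to 303. The ranges overlap over most of their width, and among the other listed elements the median was 269 for the 108 that only fell and 258 for the 9 that only rose. Most falling elements among the 35 lay in gene-poor sequence, but AT1TE30550, AT1TE17030, AT1TE22850 and AT4TE51020 had between 260 and 304 genes around them. No test was made, since direction and level come from the contrasts that chose the elements.

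**Figure D2:**
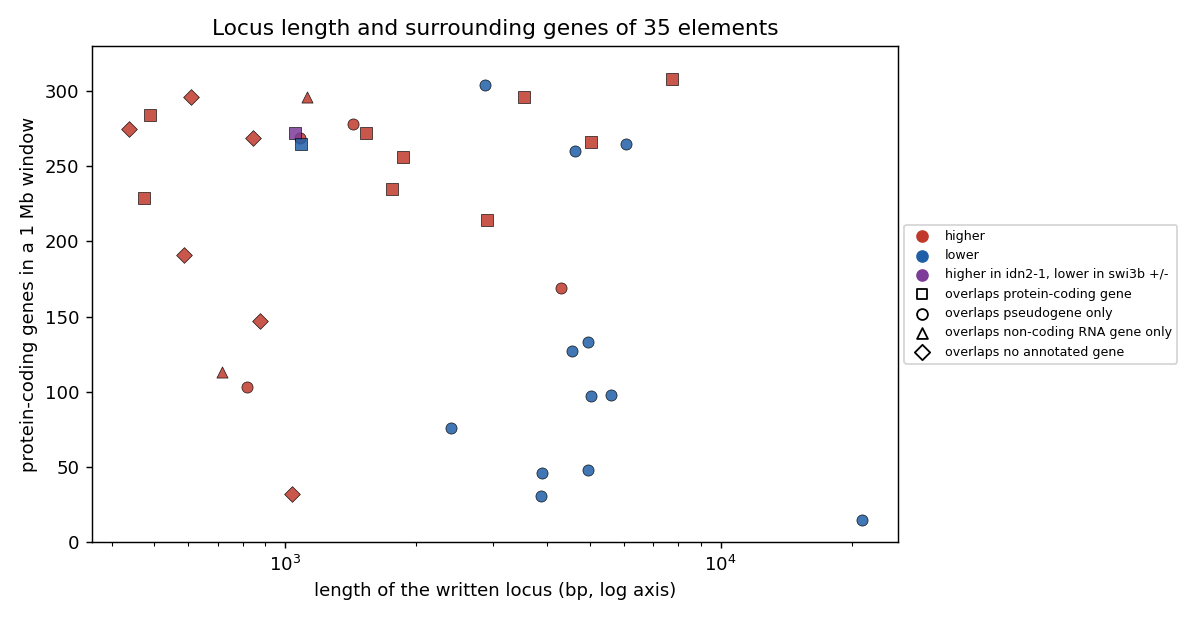
Length of the locus written in the tables (log axis) against the number of protein-coding genes in a 1 Mb window around it, for the 35 elements. Colour gives the direction and shape the annotated overlap; blue circles (falling, over pseudogenes) gather at long loci and red diamonds (rising, no annotated gene) at loci of 438 to 1038 bp.

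Overlap with genes is given in the same way. Of the 35 loci, 29 overlap a gene of any kind in the RefSeq annotation, 11 a protein-coding gene and 16 pseudogenes without a protein-coding gene. Of the 13 elements that only fell, 12 lie over pseudogenes and AT4TE51020 over a protein-coding gene. Of the 21 that only rose, 9 overlap a protein-coding gene, 4 a pseudogene, 2 a non-coding RNA gene and 6 no annotated gene. Gene identifiers listed in the same table overlap 3 of the 35 loci, those of AT3TE35255, AT5TE31645 and AT5TE35950. A gene listed in another table overlaps 1 more, that of AT5TE60280. Among the 118 other listed elements 93.2% overlap a protein-coding gene, against 31.4% of these 35. By direction the share among the others was 93.5% of those that only fell and 88.9% of those that only rose, so the order seen among the 35 was not seen there.

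The 6 elements clear of annotated genes were all higher in idn2-1 and listed in no other table. They are AT1TE40725, AT1TE42190, AT3TE51710, AT3TE92015, AT4TE62085 and AT5TE57595. AT3TE51710 was the only 1 of them above 0 in Col-0. The others were listed at 0 in Col-0 and at 0.773 to 2.72 RPKM in idn2-1 according to the authors' deposited table (q = 0.0216 to 0.0445). Several are close to a gene: AT4TE62085 lies 28 bp from AT4G26080 and AT5TE57595 72 bp from AT5G39850. AT1TE42190 and AT1TE40725 lie 144 and 282 bp from their nearest genes, and AT3TE92015 lies 1443 bp from AT3G61028. Of the 23 higher entries of the 35 elements, 15 are in idn2-1, and 32 of the 35 are in a single table. Over all features the higher entries were 280 in nrpe1, 485 in swi3b +/- and 343 in idn2-1. Nothing is read from all 6 being higher in idn2-1 only.

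The deposited p-values of entries at a listed 0 carry a pattern of their own, noticed after the values were seen. Of the 25 such entries, 11 have a p that equals the one-sided upper tail of the standard normal at the square root of a whole number, to within 0.001 in that number. Over all features the same held for 43 of 88 entries with a 0. In idn2-1 the number was 9 for 4 of the elements, 10 for 2 and 11 for 2. For these 8 elements the deposited RPKM equals that number divided by the locus length less 204.3 bp, in kilobases, and by a scale of 17.3, with a largest deviation of 0.000241%. The offset and the scale were themselves set on these 8 elements. The relation held less widely for genes at a listed 0 in Col-0 whose p gave a whole number: within 0.01% it held for 4 of 6 in idn2-1 and 2 of 7 in nrpe1. The sources used here do not say what the number is, and it may be a fragment count. AT1TE40725, AT1TE42190, AT4TE62085 and AT5TE57595 have the number 9, the smallest whole number in that table, and share a q of 0.0445 according to the authors' deposited table. AT1TE03935 and AT5TE94040 have 10, and AT3TE43000 and AT3TE92015 have 11. AT3TE47360 in nrpe1 has 15, and AT1TE46650 and AT4TE51020, at 0 in swi3b +/-, have 15 and 11. For the other 14 entries at a listed 0 the number was not whole.

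The highest RPKM values did not go with the highest numbers. For AT4TE63620 the squared deviate of the deposited p was 9.66, and for AT5TE31645 12.5, close to those of elements at about 1 RPKM. If the same relation held for them, 301.2 RPKM would correspond to an effective length of 2.33 bp for AT4TE63620 and 66.3 RPKM to 10.9 bp for AT5TE31645. For AT4TE37565 and AT1TE03050 it would be 134.3 and 143.8 bp, against loci of 1870 and 3532 bp. The nrpe1 values use a scale of 13.8 that comes from AT3TE47360 alone. The tables give the locus and not the element's own length, so the lengths are a calculation and the order of RPKM among these elements is not read as an order of RNA amount. Among the entries at a listed 0 in a mutant, the squared deviate ran from 10.7 for AT3TE59900 to 33.4 for AT1TE30550.

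**Figure D3:**
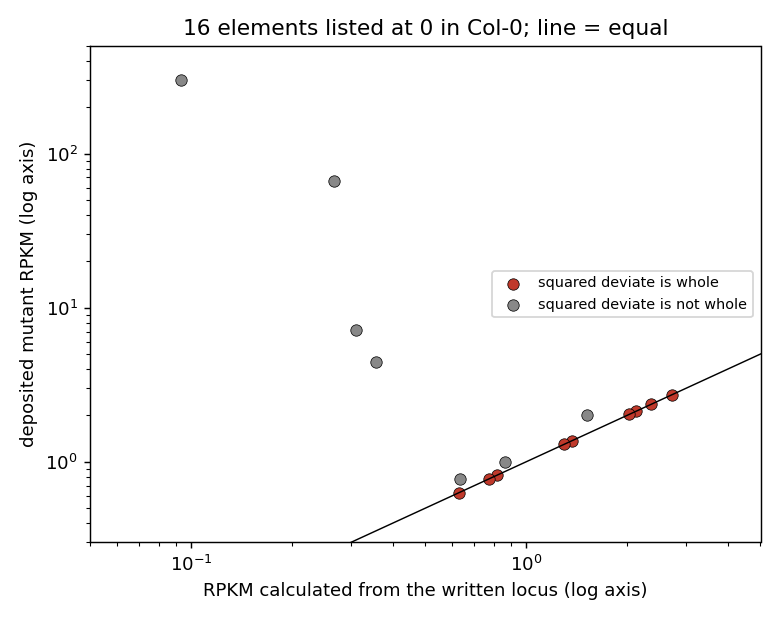
Deposited mutant RPKM against the RPKM calculated from the squared normal deviate of the deposited p and the written locus length, both on log axes, for the 16 elements listed at 0 in Col-0. Red points (whole numbers) lie on the line of equality, and AT4TE63620 and AT5TE31645, at 301.2 and 66.3 RPKM, lie farthest above it.

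Copies elsewhere in the genome bear on some elements. Stretches of at least 100 bp with at least 95% identity elsewhere on the nuclear chromosomes covered more than 50% of 4 loci and were not found for 27. They covered 100% of AT5TE42470, 81.3% of AT3TE92015, 72.0% of AT5TE31645 and 69.6% of AT3TE47360. Reads from these elements may have been shared with their copies, and the values of these 4 are uncertain. AT3TE92015 had 5 other copies that aligned over at least 80% of its length at 80% identity or more.

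Of 41 genes in 3 lists of silencing and chromatin remodelling factors, 3 were listed in nrpe1, 1 in idn2-1 and 0 in swi3b +/-, where 1.88%, 3.18% and 2.43% of all tests were called. These counts are too small to set apart from those shares. In nrpe1, NRPE1 itself fell from 3.98 to 1.01 RPKM and the DNA demethylase gene ROS1 from 8.88 to 0.939 RPKM according to the authors' deposited table (q = 0 each). SWI3D, another SWI/SNF subunit gene, rose 1.55-fold there (q = 0.0444 according to the authors' deposited table). In idn2-1 ROS1 fell from 8.58 to 0.862 RPKM according to the authors' deposited table (q = 0). SWI3B and IDN2 are not among the listed genes, so their own RNA gives no check on the swi3b +/- and idn2-1 labels.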

How the data were processed

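RNA-seq of rRNA-depleted seedling RNA was used. TopHat, Cufflinks and the TAIR10 build are named, without versions, per the submitters' processing notes. Per the file headers, the authors gave RPKM for Col-0 and the mutant, a log2 fold change held here as a score (with a placeholder of extreme size where a value is 0), and also a p-value with its q-value. The calculation behind the deposited p-values and q-values, and whether libraries kept strand, are not given in the sources used here. Read totals are unknown. No fold is given against a listed 0.

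Starts were raised by 1 to give 1-based loci. The RefSeq annotation of TAIR10.1 was used after all 1462 matched gene identifiers (of 1465) overlapped their reference gene. The number of tests was recovered from p, rank and q. Overlap means at least 1 bp. Repeats and copies were found with BLAST 2.17.0, and other steps used pandas 2.3.3, scipy 1.17.1 and biopython 1.88. This recovery of the number of tests, and the squared normal deviate of p, were tested on simulated data.

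The 35 elements, the 41 listed factors and the rule for named elements were chosen with earlier results of these data known. The rule takes, per mutant, the 8 highest values among rises and 8 largest falls, elements in 2 tables, at 0 in Col-0, clear of genes or next to the limit. The 2 RefSeq alternatives, the squared deviates of p, the sequence comparisons and the gene-density window were chosen after seeing the data. The count of unmapped value columns was 0.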

Additional observations from a re-analysis of the deposited data

How the results depend on the processing

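Of 40 values recomputed under alternatives, 32 stayed within 1.5 times the reported count, some of them under settings that could not move it. With q under 0.01, the higher elements were 4 in nrpe1 and 4 in idn2-1, and the lower ones 1 in nrpe1 and 3 in swi3b +/-. With a Col-0 limit of 2 RPKM, 0 elements were higher in swi3b +/-, where AT3TE35255 at 2.25 RPKM drops out, and 2 loci overlapped a gene listed in any table. That overlap was 29 loci with all annotated RefSeq genes and 11 with protein-coding ones, in place of 4 with listed genes, because the reference holds more genes than the tables. A limit of 10 RPKM and a limit applied in each table alone moved no count beyond 1.5 times. The minimum of 2-fold could move none, since entries with a 0 were kept and the smallest fold was 2.23. A stricter overlap could move none either, since the 4 overlapping loci are identical to those of the genes. The 32 values are thus not read as a measure of stability. No paired analysis was possible because the tables give 1 value per genotype, and for the same reason no replicate could be left out. Read totals are unknown, so what depth limits could not be measured.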
